A study of Mus musculus with 3 samples.

Results

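The 7 genes described here encode proteins of the epithelial cell surface: Epcam, Cd24a, Spint1, Spint2, St14, Prom1 and Tspan8. They were taken by name, through the Ensembl identifiers of the deposited tables, from 52661 genes in all, and every one of the 7 was found. Their levels were compared over 3 bulk RNA sequencing libraries made from mouse mammary cells after sorting, with 1 library per population, to ask how epithelial each library is, given that the labels describe all of them as epithelial and sorted for PROCR, a receptor of the anticoagulant protein C. The CD36+ library came from cells gated as EpCAM positive, CD49f high, CD36 positive and PDPN negative, and its title gives them as Cdh5 positive. The double-negative library came from cells with the same EpCAM and CD49f gate that were negative for CD36 and for PDPN, also titled Cdh5 positive. The PDPN+ library came from cells with that gate that were CD36 negative and PDPN positive, titled Cdh5 negative. Every population was therefore selected for EpCAM protein, the product of the first of the 7 genes. No population had a second library, so no value has a replicate error and no test between populations exists. The labels used here name neither strain, age nor the number of animals. Totals ran from 51138993 to 67675778 counts per library, and mitochondrial transcripts took 2.07% to 2.11% of them. The genes of the gates followed the labels only in part: Pdpn had 12.5 and 32.3 CPM in CD36+ and double-negative cells, against 830.2 CPM in PDPN+ cells, while Cd36 had 4766 CPM in CD36+ cells, 1523 CPM in double-negative cells, which were sorted as CD36 negative, and 45.1 CPM in PDPN+ cells. Cdh5, the endothelial cadherin of the titles, had 465 and 206 CPM in CD36+ and double-negative cells, against 0.176 CPM in PDPN+ cells, and Procr had 746 and 528 against 208 CPM.

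EpCAM is an adhesion molecule found on most simple and glandular epithelia and is the usual handle for sorting mammary epithelium, in which luminal cells stain more strongly than basal cells. CD24, a small glycoprotein held by a lipid anchor, and prominin-1 (CD133), a protein of membrane protrusions, are also used to sort mammary cells, and CD24 is known from B cells, neutrophils and red cell precursors as well. Matriptase, the product of St14, is a membrane-bound serine protease of epithelia that is held in check by a pair of Kunitz-type inhibitors, HAI-1 (Spint1) and HAI-2 (Spint2). TSPAN8 is a tetraspanin, a protein with several membrane passes that gathers other surface proteins, EpCAM among them, into patches.

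The 7 genes did not move together. Measured against PDPN+ cells, Epcam, Spint1 and St14 were lower in CD36+ cells, Tspan8 and Prom1 were higher, and Cd24a and Spint2 were less than 2-fold apart. The rule for a call was a gap of 4-fold or more, with 10 CPM or more on the higher side (CPM, counts scaled to library size, here with TMM factors for library composition). All 7 genes reached 10 CPM in CD36+ or PDPN+ cells. By this rule 2 of the 7 were called higher in CD36+ cells, where 15.1% of 9387 genes were, and 3 were called lower, where 17.6% were, so that 5 of 7 were called, beside 32.7% of all genes in either direction. In double-negative cells 6 of the 7 reached 10 CPM there or in PDPN+ cells, Prom1 being the exception. Of these, Tspan8 was called higher than in PDPN+ cells, against a background of 14.9% of 9515 genes, and Epcam and Spint1 were called lower, against 19.3%, which makes 3 of 6 beside 34.2% in either direction. Between CD36+ and double-negative cells 5 of the 7 reached 10 CPM, and 0 were called, where 12.2% of 8968 genes were called higher and 11.9% lower in CD36+ cells, 24.2% together. With so few genes, these counts describe the 7 and say nothing beyond them. Both comparisons against PDPN+ cells share that library.

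The median log2 ratio of the 7 genes was -0.07 for CD36+ over PDPN+ cells, beside -0.02 over all genes tested. For double-negative over PDPN+ cells the median of the 6 genes past 10 CPM was -1.06, beside -0.11. For CD36+ over double-negative cells the median of 5 genes was 0.17, beside 0.11. Total counts in place of TMM moved the median of all genes to -0.49, -0.38 and -0.09 in the same order of comparisons, and upper quartile scaling moved it to 0.31, 0.24 and 0.09. The division of calls over all genes between CD36+ and PDPN+ cells followed the scaling: 1415 were higher and 1654 lower with TMM, 1660 higher and 1381 lower with upper quartile scaling, 1120 higher and 2124 lower with total counts, and 1086 higher and 2034 lower by deposited TPM (transcript share, which corrects for transcript length).

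**Figure D1:**
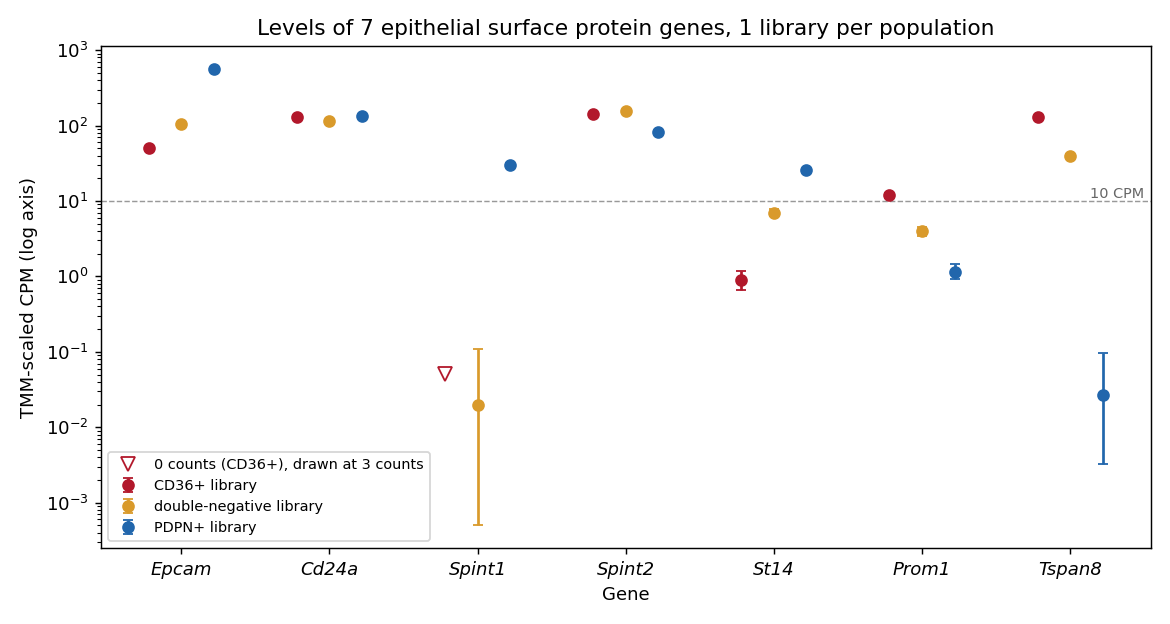
TMM-scaled CPM on a log axis for the 7 genes, 1 point for each library, with exact 95% counting intervals as bars (smaller than the point where not visible); the open triangle marks 0 counts and is drawn at the level of 3 counts. Cd24a and Spint2 lie close together in all 3 libraries, Epcam, Spint1 and St14 are highest in PDPN+ cells, and Tspan8 is at 0.0270 CPM there.

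Epcam (chromosome 17, 87635979 to 87651129, plus strand, mm10 build) had 50.7 CPM in CD36+ cells, 104 CPM in double-negative cells and 560.1 CPM in PDPN+ cells. Although all cells had passed an EpCAM gate, the level in CD36+ cells was 9.06% and that in double-negative cells 18.5% of the level in PDPN+ cells. Epcam was 11-fold lower in CD36+ than in PDPN+ cells (95% counting interval 10.6 to 11.5) and 5.41-fold lower in double-negative than in PDPN+ cells (5.25 to 5.56). It was 2.04-fold lower in CD36+ than in double-negative cells (1.95 to 2.14), below the 4-fold rule. Deposited TPM gave 30.2, 67.3 and 467 in CD36+, double-negative and PDPN+ cells, with wider gaps of 15.5-fold and 6.93-fold against PDPN+ cells. Among 21786 protein-coding genes, Epcam ranked 3180th by TPM in CD36+ cells, 1851st in double-negative cells and 284th in PDPN+ cells. Its transcripts were thus above the middle of the protein-coding genes in every library, at percentiles 85.4, 91.5 and 98.7. That ranking includes genes with 0 counts, so its middle is low: St14, at 0.293 TPM in CD36+ cells, stood at percentile 49.9 there. Itga6, which encodes the other epithelial gate protein, CD49f, and is also made by endothelial cells, was less uneven, at 436 and 399 CPM in CD36+ and double-negative cells, against 1021 CPM in PDPN+ cells. In bulk RNA, fewer cells of a type and less RNA per cell cannot be told apart.

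Cd24a (chromosome 10, 43578284 to 43584265, plus strand) was nearly level. It stood at 128 CPM in CD36+ cells, 114 CPM in double-negative cells and 135 CPM in PDPN+ cells. The CD36+ level was 1.05-fold lower than that of PDPN+ cells (1.02 to 1.08) and the double-negative level 1.18-fold lower (1.15 to 1.22), and both directions turned under upper quartile scaling, with log2 ratios of 0.20 and 0.04. By TPM the gaps were 1.45-fold and 1.52-fold, at 88.3 and 84.1 in CD36+ and double-negative cells and 128 in PDPN+ cells. Of the blood cell genes that could go with Cd24a, Ptprc, the common leukocyte antigen, stood at 1.10, 0.970 and 0.798 CPM in CD36+, double-negative and PDPN+ cells. The 18 leukocyte genes together summed to 78.2, 152 and 12.2 TPM in the same order, with Cd3e, Adgre1, S100a8, S100a9 and Tyrobp at 0 counts in both CD36+ and double-negative cells. The sum in both rested mainly on Fcer1g, at 48.6 and 140.1 TPM. Of 7 erythroid genes, 3 globin genes reached 10 CPM in CD36+ cells, with a summed level of 284 TPM for the list, against 0.0253 TPM in double-negative cells and 0.463 TPM in PDPN+ cells, while Alas2, the heme synthesis enzyme of red cell precursors, had 0 counts in CD36+ cells. The part of these cells in the Cd24a level was not tested.

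The inhibitors of matriptase behaved unlike each other. Spint1 (chromosome 2, 119237362 to 119249527, plus strand) had 0 counts in CD36+ cells, 1 count in double-negative cells and 2242 counts, or 30.3 CPM, in PDPN+ cells. Spint1 was at least 598-fold lower in CD36+ than in PDPN+ cells, taking 3 counts as the floor of that library (0.0507 CPM), and the 95% counting interval of that fold began at 486. For double-negative cells the ratio of 1 count to 2242 counts was 1531-fold lower after scaling, with a counting interval of 274 to 60483. Spint2 (chromosome 7, 29256323 to 29281912, minus strand) had 143 CPM in CD36+ cells, 158 CPM in double-negative cells and 81.8 CPM in PDPN+ cells. Spint2 was 1.74-fold higher in CD36+ than in PDPN+ cells (1.69 to 1.80) and 1.94-fold higher in double-negative cells (1.87 to 2.0). Spint2 kept that direction under every scaling tried and by TPM, where the folds were 1.23 and 1.5. A near-absence such as that of Spint1 is not rare in these libraries. Of the 9387 genes tested between CD36+ and PDPN+ cells, 4.33% had at most 2 counts in CD36+ cells and 2.51% at most 2 counts in PDPN+ cells.

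St14 (chromosome 9, 31089402 to 31131853, minus strand), the protease itself, had 0.895 CPM in CD36+ cells, 6.99 CPM in double-negative cells and 25.7 CPM in PDPN+ cells. It was 28.7-fold lower in CD36+ than in PDPN+ cells (21.8 to 38.4). The double-negative level was 3.67-fold lower than the PDPN+ level (3.28 to 4.13), short of the 4-fold rule, which it passed by TPM (5.06-fold) and under total-count scaling. The CD36+ level was 7.81-fold below the double-negative level (5.84 to 10.6), but neither library reached 10 CPM. St14 thus followed the order of Epcam over the 3 libraries. Per length, inhibitor and protease transcripts stood in different proportions. TPM of Spint2 was 516 times that of St14 in CD36+ cells, 73.1 times in double-negative cells and 9.64 times in PDPN+ cells. In PDPN+ cells St14 stood at 0.563 of the TPM of Spint1 and 0.104 of that of Spint2.

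Tspan8 (chromosome 10, 115816832 to 115849893, plus strand) ran against Epcam. It stood at 128 CPM in CD36+ cells, 39.7 CPM in double-negative cells and 0.0270 CPM, or 2 counts, in PDPN+ cells. Tspan8 was 4739.7-fold higher in CD36+ than in PDPN+ cells (1312 to 39145) and 1469-fold higher in double-negative cells (406 to 12139.7). Both folds rest on the 2 counts of PDPN+ cells. Between CD36+ and double-negative cells Tspan8 was 3.23-fold higher in CD36+ cells (3.07 to 3.39). The log2 ratio of Tspan8 exceeded that of 99.7% of the genes tested between CD36+ and PDPN+ cells, and that of Spint1 exceeded 0.863% of them, so the set reached from one end of the range to the other.

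Prom1 (chromosome 5, 43993620 to 44102032, minus strand) was the lowest of the 7 by its highest library. It stood at 11.9 CPM in CD36+ cells, 3.96 CPM in double-negative cells and 1.16 CPM in PDPN+ cells. Prom1 was 10.2-fold higher in CD36+ than in PDPN+ cells (8.17 to 12.9), 3.41-fold higher in double-negative than in PDPN+ cells (2.63 to 4.44) and 3.0-fold higher in CD36+ than in double-negative cells (2.56 to 3.53). TPM gave another picture, with 4.03, 5.51 and 2.26 in CD36+, double-negative and PDPN+ cells. By TPM the level in double-negative cells was the highest, and the fold of CD36+ over PDPN+ cells was 1.78. The deposited reads and TPM of a gene together give the mean effective length of its transcripts, weighted by their TPM. For Prom1 this length was 3241 bases in CD36+ cells, 868 bases in double-negative cells and 795 bases in PDPN+ cells. Shorter transcript models thus weighed more in double-negative and PDPN+ cells. The share of Prom1 reads that they took was not examined. For Epcam it was 1849 to 1861 bases over the 3 libraries, for St14 3122 to 3368 bases and for Tspan8 969.9 to 1010.2 bases. An antisense gene within Prom1, Gm16401, had 46 counts in double-negative cells and 0 in CD36+ cells, beside 200 and 704 counts of Prom1 in these libraries, and 1 count in PDPN+ cells, beside 86 of Prom1. Gm42716, a processed transcript that overlaps Prom1 on the same strand, had 2, 11 and 8 counts in CD36+, double-negative and PDPN+ cells. Whether the counting used strand is not stated in the sources at hand, so reads of Prom1 and Gm16401 cannot be told apart with certainty. Strand would not separate reads of Prom1 and Gm42716.

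**Figure D2:**
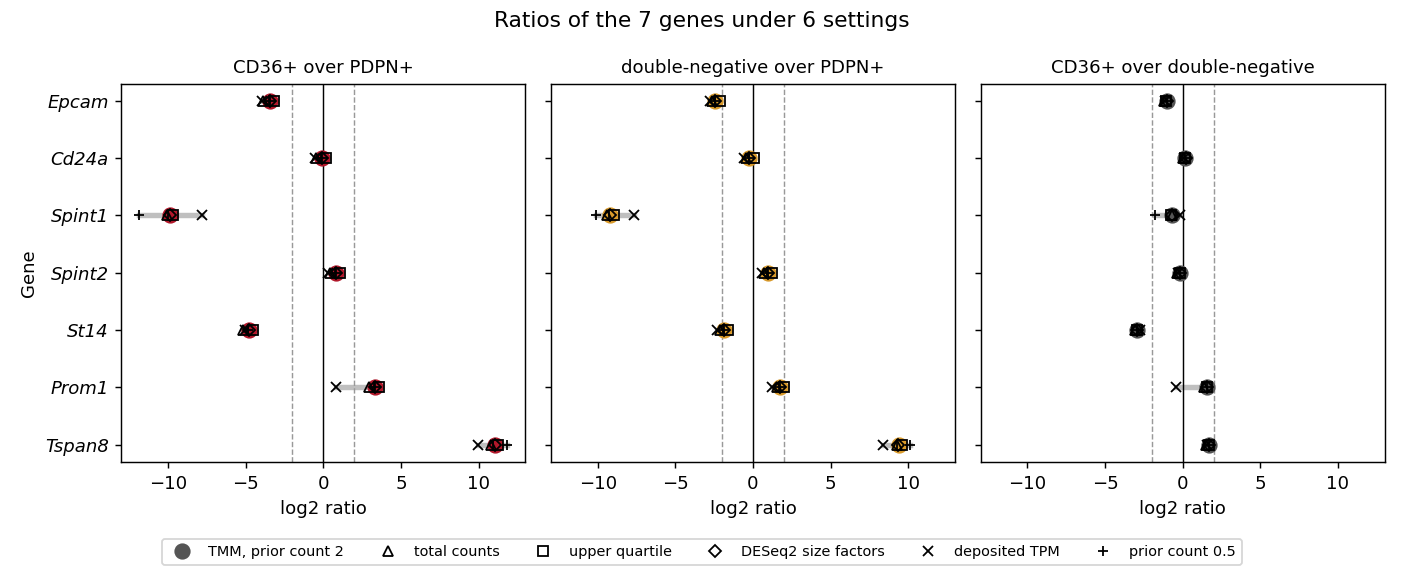
Log2 ratios of the 7 genes in the 3 comparisons, with TMM scaling as large points and 5 other settings as small symbols joined by a grey bar; dashed lines mark 4-fold. The symbols of Tspan8 and Spint1 stay beyond the 4-fold lines against PDPN+ cells, while TPM moves Prom1 from 3.32 to 0.81 for CD36+ over PDPN+ cells and from 1.58 to -0.44 for CD36+ over double-negative cells.

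The sequences upstream of the RefSeq starts of the genes with the sharpest contrasts are shown, as the stretch in which binding letters of known regulators can be read: Epcam, Spint1 (near absent outside PDPN+ cells), its relative Spint2 (present in all) and Tspan8 (near absent in PDPN+ cells). They come from RefSeq on the GRCm38.p6 build, whose chromosome sequence is that of mm10, where 5 of the 7 genes were listed, Cd24a and St14 being not listed. Each is written 5′ to 3′ on the strand of its gene and ends just before the RefSeq start, or for Tspan8 before the nearest annotated exon. The RefSeq start of Tspan8 lies inside the GENCODE span of the gene given above, which begins at 115816832, so the Tspan8 stretch is upstream of that RefSeq start only and not of the whole gene that was counted. The RefSeq start of Spint2 lies outside its GENCODE span, which begins at 29281912 on the minus strand. The Spint2 stretch ends at 29281978 and so does not reach the start of the gene that was counted. The regions are chr17:87635729-87635978 (plus strand) for Epcam, chr2:119237110-119237359 (plus) for Spint1, chr7:29281978-29282227 (minus) for Spint2 and chr10:115817034-115817270 (plus) for Tspan8. Capitals mark CACCTG, the E-box letters that the repressors ZEB1 and SNAI2 are known to bind, and GGGCGG, the GC box, each on either strand.
Epcam: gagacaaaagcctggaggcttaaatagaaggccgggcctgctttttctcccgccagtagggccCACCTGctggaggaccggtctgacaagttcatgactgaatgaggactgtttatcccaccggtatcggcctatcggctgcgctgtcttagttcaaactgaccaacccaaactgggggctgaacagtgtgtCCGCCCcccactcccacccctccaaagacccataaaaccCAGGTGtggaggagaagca
Spint1: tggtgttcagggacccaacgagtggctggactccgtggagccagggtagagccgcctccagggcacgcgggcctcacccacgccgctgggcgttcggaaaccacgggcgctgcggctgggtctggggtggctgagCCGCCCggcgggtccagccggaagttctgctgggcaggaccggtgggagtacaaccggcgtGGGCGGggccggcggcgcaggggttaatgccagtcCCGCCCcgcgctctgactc
Spint2: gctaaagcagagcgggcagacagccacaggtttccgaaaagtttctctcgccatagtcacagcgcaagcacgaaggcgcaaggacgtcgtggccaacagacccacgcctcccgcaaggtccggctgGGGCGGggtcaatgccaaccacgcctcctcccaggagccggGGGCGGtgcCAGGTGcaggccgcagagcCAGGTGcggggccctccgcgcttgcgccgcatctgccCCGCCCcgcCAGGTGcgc
Tspan8: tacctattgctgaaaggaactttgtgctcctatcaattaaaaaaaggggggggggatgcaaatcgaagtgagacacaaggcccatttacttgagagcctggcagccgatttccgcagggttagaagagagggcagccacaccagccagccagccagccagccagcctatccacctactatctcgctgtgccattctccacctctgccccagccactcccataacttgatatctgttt

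In the 250 bases before the RefSeq start, CACCTG was found at 2 places for Epcam, 3 for Spint2, 0 for Spint1 and 0 for Tspan8, and in 17.2% of 32817 mouse promoters of the same length. GGGCGG was found at 1 place for Epcam, 3 for Spint1, 3 for Spint2 and 0 for Tspan8, and in 32.7% of the promoters. The grainyhead core AACNNGTT, which GRHL2, an activator of epithelial genes, is known to bind, was found in none of the windows of these 4 genes, and in 3.64% of the promoters. GC content was 56.4%, 72.8%, 69.6% and 52.4% for Epcam, Spint1, Spint2 and Tspan8, beside a median of 52.4% over all promoters. Prom1, whose sequence is not shown, has a pair of RefSeq starts, both with AACNNGTT (at -45 and at -122 from the start), and the start with the match at -122 also has CACCTG at -222 and GGGCGG at -62. These matches describe letters, not binding.

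Of 6 repressors of epithelial genes, 3 reached 10 CPM in CD36+ or PDPN+ cells, with 1 called higher and 1 lower in CD36+ cells (median -1.56). In double-negative cells 2 of 4 were called higher and 1 lower than in PDPN+ cells (median 1.54). Over all genes the shares were 15.1% and 17.6% for CD36+ cells, and 14.9% and 19.3% for double-negative cells. The genes for ZEB1 and SNAI2 differed in opposite senses. Zeb1 stood at 318 and 377 CPM in CD36+ and double-negative cells, against 1.77 CPM in PDPN+ cells. Snai2 stood at 0.0676 and 14.8 CPM in CD36+ and double-negative cells, against 104 CPM in PDPN+ cells. Grhl2 stood at 1.32 and 1.51 CPM in CD36+ and double-negative cells, against 23.9 CPM in PDPN+ cells. Grhl1, of the same family, was called the other way, at 13.5 CPM in CD36+ cells, 0.178 CPM in double-negative cells and 1.34 CPM in PDPN+ cells.

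Set beside other genes of epithelial cells, Epcam was one of many called lower outside PDPN+ cells, while Cd24a and Spint2 were not called. Of 38 pan-epithelial genes, 20 reached 10 CPM in CD36+ or PDPN+ cells, of which 13 were called lower and 1 higher in CD36+ cells (median log2 ratio -3.48, beside -0.02 over all genes). In double-negative cells 14 of 20 were called lower and 1 higher than in PDPN+ cells (median -2.79, beside -0.11). Of the 38, 18 reached 10 CPM in PDPN+ cells, 10 in CD36+ cells and 11 in double-negative cells. Over all genes 17.6% were called lower and 15.1% higher in CD36+ cells, and 19.3% and 14.9% in double-negative cells. Sfn, a 14-3-3 protein of stratified and glandular epithelia, stood at 38.1 and 213 CPM in CD36+ and double-negative cells, against 2108 CPM in PDPN+ cells. Cdh1, the epithelial cadherin, stood at 0.861 and 37.0 CPM in CD36+ and double-negative cells, against 215 CPM in PDPN+ cells. The keratin genes Krt8 and Krt18 fell short of the rule, with Krt8 at 122 and 84.4 CPM in CD36+ and double-negative cells, against 326 CPM in PDPN+ cells, and Krt18 at 131 and 145 against 284 CPM. F11r, a junction protein that endothelial cells also carry, went the other way below the rule, at 237 and 234 against 90.9 CPM. All 38 genes had counts in PDPN+ cells. In CD36+ cells 9 of them had 0 counts, Ovol2, Rab25, Marveld2, Marveld3, Pkp3, Perp, Tjp3, Crb3 and Muc1, and in double-negative cells 7 had 0 counts. Between CD36+ and double-negative cells, 1 of 13 pan-epithelial genes was called higher in CD36+ cells, beside 12.2% of all genes. Lower calls took 4 of the 13, beside 11.9% (median 0.02, beside 0.11 over all genes). Besides Cdh1 and Sfn, those lower in CD36+ cells were Perp, a desmosome protein gene (0 and 23.1 CPM in CD36+ and double-negative cells), and Ehf, an epithelial ETS factor (0.135 and 15.4 CPM).

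Per length, Epcam stood in different proportion to other epithelial transcripts. Its TPM was 134 times that of Cdh1 in CD36+ cells, 6.40 times in double-negative cells and 5.94 times in PDPN+ cells. Against Krt8 the proportion was 0.396 in CD36+ cells, 1.17 in double-negative cells and 1.64 in PDPN+ cells. The 7 genes together held 413 TPM in CD36+ cells, 391 in double-negative cells and 754 in PDPN+ cells. Of that sum Epcam made up 7.30% in CD36+ cells, 17.2% in double-negative cells and 61.9% in PDPN+ cells. Spint2 made up 36.5% and 47.0% in CD36+ and double-negative cells, against 16.2% in PDPN+ cells. In CD36+ cells Tspan8 held 33.8%, more than Cd24a with 21.4%.

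**Figure D3:**
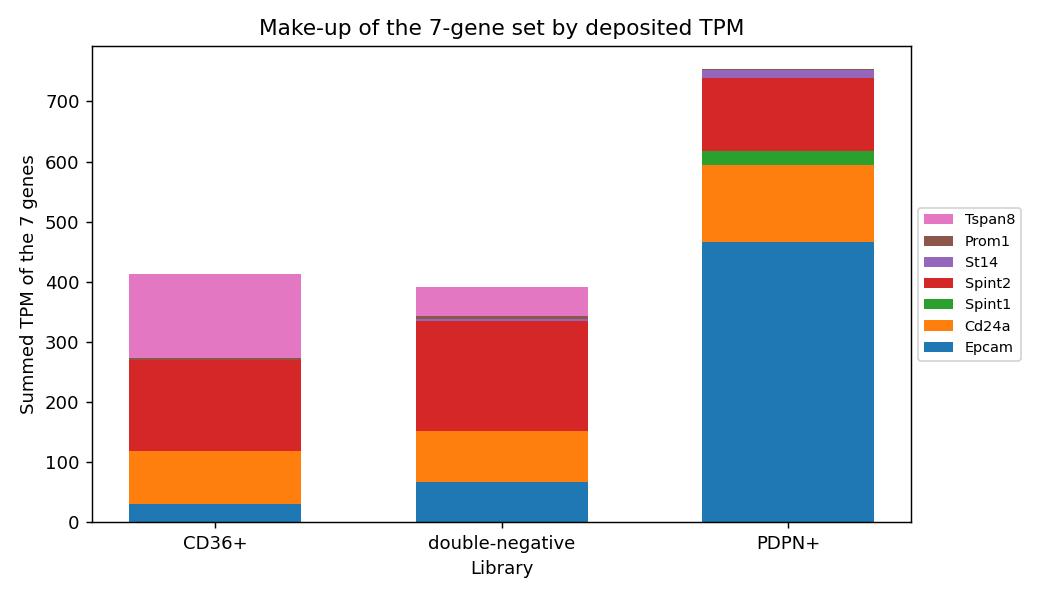
Deposited TPM of the 7 genes stacked for each library on a linear axis. Epcam (bottom) makes up most of the PDPN+ bar of 754 TPM, while Spint2, Tspan8 and Cd24a make up most of the CD36+ bar of 413 TPM.

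The lists of single cell types show what else was in the libraries. The 20 endothelial genes summed to 25906 and 24826 TPM in CD36+ and double-negative cells, against 369 TPM in PDPN+ cells. All 19 that reached 10 CPM were called higher in CD36+ cells and again in double-negative cells. Only 6 of the 20 reached 10 CPM in PDPN+ cells, so most entered the count through the library where they were high. The gene left out, Sox18, stood at 3.97, 1.72 and 2.95 CPM in CD36+, double-negative and PDPN+ cells. Most of that sum was Ackr1, a chemokine receptor of venules, at 21701 and 21568 TPM in CD36+ and double-negative cells, against 211 TPM in PDPN+ cells, and the other 19 genes summed to 4204 and 3258 TPM, against 158 TPM. Pecam1 (CD31), which joins endothelial cells to each other, stood at 570.4 and 498 TPM in CD36+ and double-negative cells, beside 30.2 and 67.3 TPM of Epcam. In PDPN+ cells the order was the other way, with Pecam1 at 46.5 TPM and Epcam at 467 TPM. The labels call all 3 populations epithelial, and in CD36+ and double-negative cells the endothelial sum, with or without Ackr1, stood above that of the pan-epithelial markers, whose 38 genes summed to 540.1 and 711 TPM there, against 3714 TPM in PDPN+ cells. Of 17 basal and myoepithelial genes, which mark the contractile outer cell layer of the ducts, 16 were called lower in CD36+ cells (median -5.42) and 15 in double-negative cells (median -4.22), of the 17 tested in each. All 17 reached 10 CPM in PDPN+ cells, but only 6 did in CD36+ cells and 11 in double-negative cells. Over all genes 17.6% were called lower and 15.1% higher in CD36+ cells, and 19.3% and 14.9% in double-negative cells. Trp63, the basal transcription factor, stood at 0.0507 and 34.1 CPM in CD36+ and double-negative cells, against 1753 CPM in PDPN+ cells. Between CD36+ and double-negative cells, 2 of 13 basal genes were called higher in CD36+ cells and 6 lower. Over all genes these shares were 12.2% and 11.9%. The higher basal genes were Krt5, a basal keratin, at 18.4 and 3.03 CPM in CD36+ and double-negative cells, against 239 CPM in PDPN+ cells, and Itgb4, an integrin of basement membrane attachment, at 16.1 and 0.812 against 13.4 CPM.

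Luminal genes, which mark the inner, milk-producing layer, went in both directions. Of 20 on the list, 14 reached 10 CPM in each comparison with PDPN+ cells. In CD36+ cells 4 were called higher and 1 lower (median 1.48), and in double-negative cells 5 higher and 2 lower (median 1.03). Over all genes 15.1% and 17.6% were, and 14.9% and 19.3% in double-negative cells. The higher luminal genes were Kit, Cd14, Csn3 and Ly6d in both, with Wfdc18 added in double-negative cells. Cd14 alone held 739.6 of 1356 summed TPM in CD36+ cells and 677 of 1457 in double-negative cells. Krt8 and Krt18, also on the list, were lower without a call, as given above. Kit, a receptor of luminal progenitors that other cells also carry, stood at 129.95 and 108 CPM in CD36+ and double-negative cells, against 7.36 CPM in PDPN+ cells. Gata3, a transcription factor of luminal cells, stood at 5.54 and 4.73 CPM, against 236 CPM in PDPN+ cells. Krt7, a keratin of simple epithelia, was also called lower in double-negative cells, at 3.63 and 2.32 CPM in CD36+ and double-negative cells, against 11.3 CPM in PDPN+ cells. Of 11 fibroblast genes, 2 of 9 tested were called higher and 5 lower in CD36+ cells, and 0 of 8 higher and 7 lower in double-negative cells, each against PDPN+ cells. The higher ones were Fbn1, which encodes a matrix microfibril protein, at 69.2 and 55.5 CPM in CD36+ and double-negative cells, against 16.0 CPM in PDPN+ cells, and Lox, a collagen cross-linking enzyme, at 17.2 and 0.0990 against 0.0135 CPM. The fibroblast genes summed to 76.1 and 52.9 TPM in CD36+ and double-negative cells, against 581 TPM in PDPN+ cells, and 6 pericyte genes to 72.2 and 54.9 TPM, against 28.0 TPM, with 1 of 2 tested called higher in each. Abcc9, a potassium channel subunit of pericytes, had 0.845 and 25.0 CPM in CD36+ and double-negative cells, against 5.22 CPM in PDPN+ cells. The part of any of these cell types in the levels of the 7 genes was not tested.

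**Figure D4:**
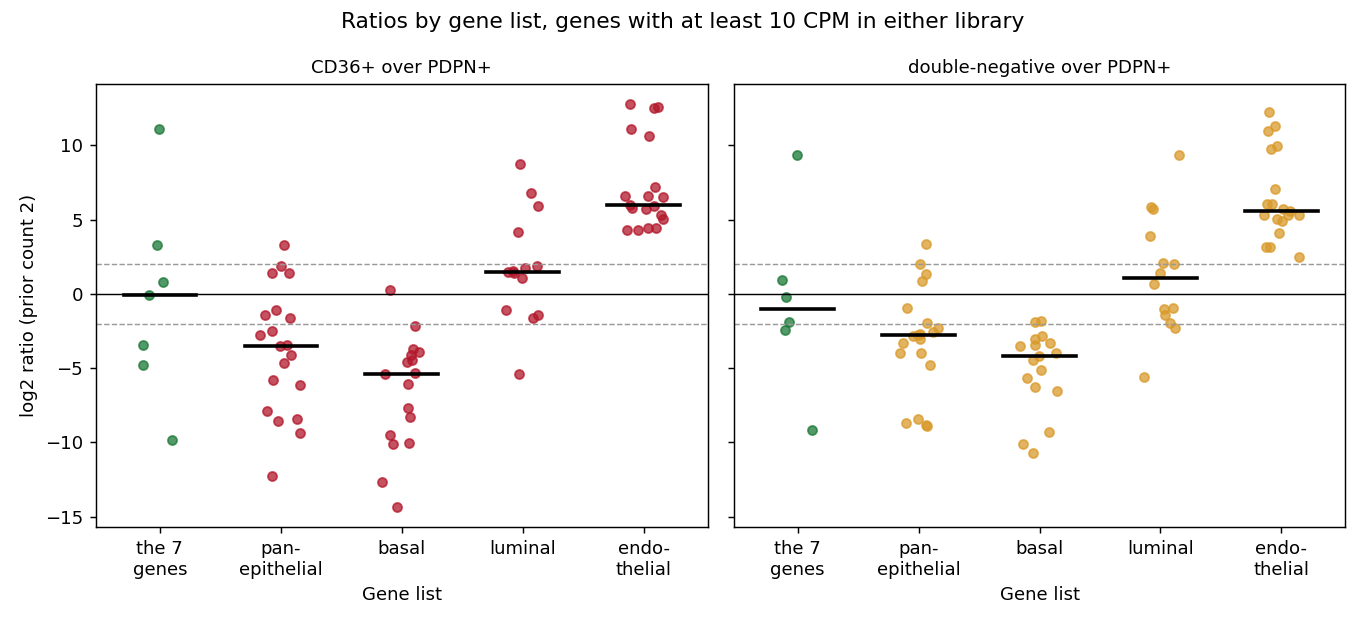
Log2 ratios against PDPN+ cells for the 7 genes and for 4 marker lists, 1 point for each gene with at least 10 CPM in either library; black bars are medians and dashed lines 4-fold. The 7 genes spread over the range spanned by the other lists, with a median of -0.07 for CD36+ cells, while the pan-epithelial (-3.48) and basal (-5.42) medians lie below 0 and the endothelial median (6.0) above it.

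Genes that act with or on EpCAM were called in both directions. Of 17 genes for partners, cleaving enzymes and the signalling path of the EpCAM fragment, 14 reached 10 CPM in CD36+ or PDPN+ cells. In CD36+ cells 2 were called higher and 4 lower (median 0.03), beside 15.1% and 17.6% of all genes. In double-negative cells 1 of 12 was called higher and 3 lower (median -0.59), beside 14.9% and 19.3%. Between CD36+ and double-negative cells, 3 of 13 were called higher and 1 lower in CD36+ cells (median 0.1), beside 12.2% and 11.9%. With so few genes, these counts describe the list only. Cd44, a hyaluronan receptor that is found with EpCAM and TSPAN8, stood at 19.4 and 65.0 CPM in CD36+ and double-negative cells, against 534 CPM in PDPN+ cells. Cldn1, a junction protein gene on the list, stood at 29.4 and 0.0198 CPM, against 12.5 CPM in PDPN+ cells. Cldn1 was called lower in double-negative than in PDPN+ cells, and higher in CD36+ than in double-negative cells. Its relative Cldn7 stood at 5.29, 0.0990 and 0.0135 CPM in CD36+, double-negative and PDPN+ cells, too low for a call. Fhl2, which carries the EpCAM fragment to the nucleus in human cancer cells, stood at 0.0338 and 9.25 CPM, against 74.9 CPM in PDPN+ cells. Of the enzymes that cut EpCAM, Adam10 was short of the rule, at 252 and 207 CPM in CD36+ and double-negative cells, against 136 CPM in PDPN+ cells. Ncstn, a subunit of gamma-secretase, was called lower in CD36+ cells, at 8.70 CPM there, 29.2 CPM in double-negative cells and 37.4 CPM in PDPN+ cells. Other subunits of the same enzyme went the other way: Aph1a had 15.7 and 0.0396 CPM in CD36+ and double-negative cells, against 2.12 CPM in PDPN+ cells, and Aph1b 16.9 and 0.475 against 0.0135 CPM, both called higher in CD36+ cells. Psen2, a catalytic subunit, was called higher in double-negative cells, at 29.7 and 42.1 CPM in CD36+ and double-negative cells, against 8.60 CPM in PDPN+ cells. Bace1, a protease that can also cut EpCAM, was called lower in CD36+ cells, at 3.58 and 18.6 CPM in CD36+ and double-negative cells, against 32.7 CPM in PDPN+ cells.

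Other genes of the matriptase system were few. Of 17 such genes, 6 reached 10 CPM in CD36+ or PDPN+ cells. In CD36+ cells 2 were called higher and 2 lower (median -0.61), beside 15.1% and 17.6% of all genes. In double-negative cells 1 of 6 was called higher and 3 lower (median -1.67), beside 14.9% and 19.3%. Prss8, which encodes prostasin, a protease that works with matriptase, stood at 7.77 CPM in CD36+ cells, 0 counts in double-negative cells and 6.63 CPM in PDPN+ cells. Scnn1g, a subunit of the epithelial sodium channel that such proteases activate, had 1 count in CD36+ cells, 1 in double-negative cells and 33.8 CPM in PDPN+ cells. Cdcp1, a surface protein that matriptase can cut, stood at 2.30 and 42.1 CPM in CD36+ and double-negative cells, against 343 CPM in PDPN+ cells. Plaur, the urokinase receptor, was called higher in CD36+ cells, at 1241 CPM there, 654 CPM in double-negative cells and 297 CPM in PDPN+ cells. Mst1r, a receptor tyrosine kinase whose ligand is activated by such proteases, stood at 22.8 and 32.9 CPM, against 2.73 CPM in PDPN+ cells. Met, the receptor for hepatocyte growth factor, stood at 56.2, 41.1 and 61.8 CPM in CD36+, double-negative and PDPN+ cells.

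Tspan8 was not alone among the tetraspanins. Of 28 other family members, 19 reached 10 CPM in CD36+ or PDPN+ cells. In CD36+ cells 7 were called higher and 1 lower (median 0.35), beside 15.1% and 17.6% of all genes. In double-negative cells 5 of 17 were called higher and 2 lower (median 0.52), beside 14.9% and 19.3%. Tspan7 stood at 1122 and 844 CPM in CD36+ and double-negative cells, against 40.5 CPM in PDPN+ cells. Tspan13 stood at 1116 and 865 CPM, against 56.7 CPM in PDPN+ cells. Tspan3 went the other way, at 46.8 and 161 CPM, against 1073 CPM in PDPN+ cells. Cd9 and Cd63, tetraspanins of most cell types and the most abundant of the list by the mean over the 3 libraries, were short of the rule, with Cd9 at 1358 and 1267 CPM in CD36+ and double-negative cells, against 2683 CPM in PDPN+ cells, and Cd63 at 647 and 713 against 1439 CPM. Tspan12, which takes part in Wnt signalling of retinal vessels, had 480.2 and 197 CPM, against 11.2 CPM in PDPN+ cells. Between CD36+ and double-negative cells, 4 of 20 family members were called higher and 2 lower in CD36+ cells (median 0.36). Over all genes these shares were 12.2% and 11.9%. Tspan1, with 12.8 CPM in CD36+ cells, had 0 counts in double-negative and in PDPN+ cells. Tspan14 had 11.2 CPM in CD36+ cells, 0 counts in double-negative cells and 30.8 CPM in PDPN+ cells, and Tspan31 had 18.1, 81.9 and 65.3 CPM in the same order. Cd82 was called higher in double-negative cells, at 32.2 CPM, with 0.946 CPM in CD36+ cells and 0.0406 CPM in PDPN+ cells.

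**Figure D5:**
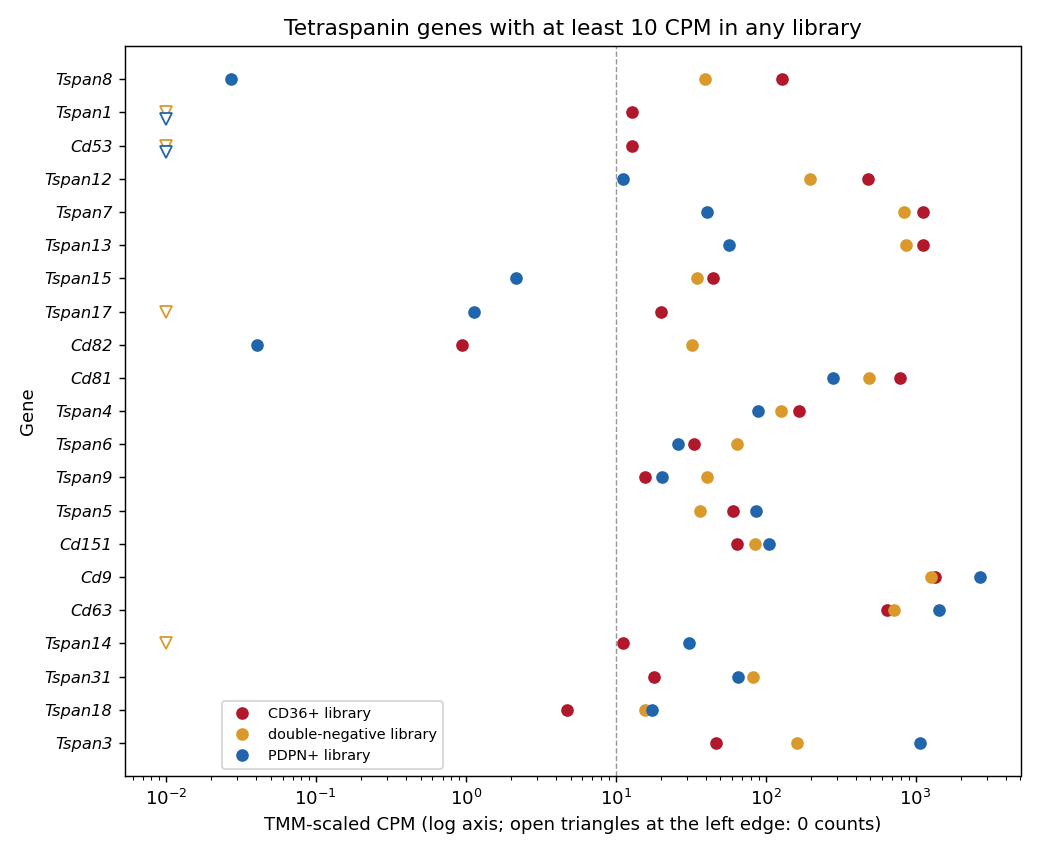
TMM-scaled CPM on a log axis for Tspan8 and the other tetraspanin genes that reached 10 CPM somewhere (21 in all), 1 point for each library, ordered by the CD36+ over PDPN+ ratio; open triangles mark 0 counts. Tspan8 stands at the top, Tspan12, Tspan7 and Tspan13 share its direction at higher levels, and Tspan3 stands at the bottom.

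Relatives and ligands of CD24 and prominin, with other genes for lipid-anchored surface proteins, were examined last among the lists. Of 8 genes, 4 reached 10 CPM in each comparison with PDPN+ cells: Selp, Ly6a, Ly6d and Ly6e. All 4 were called higher in CD36+ cells (median 4.69), beside 15.1% of all genes. In double-negative cells 2 were called higher, Selp and Ly6d (median 3.66), beside 14.9%. Selp, which encodes P-selectin, an endothelial and platelet receptor that can bind CD24, stood at 15929 and 9067 CPM in CD36+ and double-negative cells, against 174 CPM in PDPN+ cells. Siglecg, a lectin of B cells that binds CD24 in mice, stood at 0.304, 0.139 and 8.53 CPM in CD36+, double-negative and PDPN+ cells. Prom2, the relative of Prom1, stood at 0.0169, 0.0396 and 1.60 CPM in the same order, against the direction of Prom1. Ly6d, a lipid-anchored surface protein like CD24, stood at 19.5 and 29.6 CPM in CD36+ and double-negative cells, against 0.0135 CPM in PDPN+ cells, where it had 1 count.

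Among 5529 protein-coding genes averaging 20 CPM or more, those nearest to each of the 7 over the 3 libraries were found by the distance between log2 profiles centred on their own mean. With 3 points in a profile many genes lie close, and likeness here is a description of these libraries. Nearest to Epcam were Acad9, Pld3, Mme and Gli3, at distances of 0.086 to 0.192. Mme, a surface peptidase known from myoepithelial cells, stood at 11 and 19.8 CPM in CD36+ and double-negative cells, against 121 CPM in PDPN+ cells. Nearest to Spint1 were P2ry1, Galnt3, Retreg1 and Lmod1, at 0.423 to 0.559, and nearest to St14 were Tut4, Serpine2, Polr1e and Anxa6, at 0.041 to 0.299. Nearest to Tspan8 were C1qtnf9, Aplnr, Sncg and Fam43a, at 0.176 to 0.347, all with 0 counts in PDPN+ cells. Aplnr, the apelin receptor of endothelial cells, stood at 75.7 and 18.6 CPM in CD36+ and double-negative cells. Nearest to Prom1 were Rab4b, Reep1, Sh2d3c and Adam15, at 0.058 to 0.150. Nearest to Cd24a were Ptpn11, March7, H2afj and Eif4a2, and nearest to Spint2 were Lamc1, Trib3, Pdzd2 and Zbtb21, all within 0.039. Among the 7 themselves, the closest pair was Cd24a and Spint2, at 0.87, followed by Epcam and St14, at 1.37, and the farthest was Spint1 and Tspan8, at 16.21.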

How the data were processed

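Per the submitters' processing notes, reads were quantified with Salmon 0.9.1 on the mm10 build. The authors deposited TPM and estimated counts for each gene. Neither annotation release nor strand setting is named in the sources used here. Per the labels' protocols, either a low-input kit or a stranded, ribosomal-depleted kit was used, on 2 kinds of instrument, without saying which library had which, so chemistry and population cannot be told apart.

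Estimated counts were rounded. Totals were 67675778, 51138993 and 63871266 in the CD36+, double-negative and PDPN+ libraries. Identifiers without version were matched to GENCODE M21 (52566 of 52661). CPM used TMM factors (edgeR 4.0.16, R 4.3.3), and log2 ratios a prior count of 2. Fold intervals are exact (Clopper-Pearson, 95%) and, like the floor of 3 counts, cover counting error only, since reads may be PCR copies. The size rule and the intervals were tested only on simulated counts that carried counting error alone. That check does not cover variation between animals, PCR copies or kits. Python 3.11.15 did the rest.

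The 7 genes and 14 other lists were chosen with earlier results of these data known. Genes were named from the 7, the sort genes, up to 5 of each list by mean level, members called against their list's median, and the 4 nearest in profile to each of the 7. Ptprc, Grhl2, Tspan1, Tspan12, Prss8, Scnn1g, Aph1a, Aph1b, Prom2, Csn3, Wfdc18, Gm42716, Sox18, Cldn1, Cldn7 and genes named as at 0 counts were added after their values were seen. Not every gene listed by level is printed.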

Additional observations from a re-analysis of the deposited data

How the results depend on the processing

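Each count of calls and each ratio of the 7 genes was recomputed with total counts, upper quartile and DESeq2 1.42.0 size factors, with a prior count of 0.5 and from TPM, and the counts also with other minimum levels and a 2-fold rule. Of 105 such ratios of the 7 genes, 68 stayed within the counting interval and 3 changed sign: Cd24a under upper quartile scaling (0.20 for the CD36+ and 0.04 for the double-negative over the PDPN+ library) and Prom1 by TPM (-0.44 for the CD36+ over the double-negative library). Calls over all genes numbered 3069 (CD36+ over PDPN+), 3256 (double-negative over PDPN+) and 2167 (CD36+ over double-negative). Without a minimum level they numbered 8585, 8908 and 7457, and at 2-fold 5008, 5289 and 3939. At 20 CPM they numbered 2128 for the double-negative over the PDPN+ and 1124 for the CD36+ over the double-negative library. Of the 7 genes, 0 were called between the CD36+ and double-negative libraries, 1 without a minimum level (St14) and 3 at 2-fold. TMM and the scaling settings left 5 of the 7 called between the CD36+ and PDPN+ libraries, and TPM 4, as did a minimum of 20 CPM, Prom1 being lost in both. Between the double-negative and PDPN+ libraries 3 were called, and 4 with St14 added under total counts, by TPM and at 2-fold. No paired analysis was possible because each population had 1 library, and no library could be left out for the same reason. Depth limits Spint1 and Tspan8 most, whose lowest libraries held at most 2 counts.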
